A study of Mus musculus with 48 samples.

Results

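Bhlhe40, Bhlhe41 and Dazap2 are 3 of the 39017 genes counted in RNA-seq of cultured adult neural stem cells (NSCs). Quiescence was induced in the cultures, which then received Cre to delete Setd1a or kept it. The 3 genes were taken by name. The study listed them among the genes that carried Setd1a at their promoters and were lower in Setd1a-deficient (KO) NSCs on day 5. Each mouse symbol matched a single gene ID in each of the 3 count tables, and all 3 genes passed the filter on low counts in each table. The day 5 contrast therefore chose them, and its values are given here as a description without a test. Bhlhe40 was also singled out by the study for its response to ORY-1001, so its tests on day 7 are not independent of that choice.

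The NSCs came from the dentate gyrus of 7- to 8-week-old mice that carried Hopx-CreERT2, floxed Setd1a (Setd1a fl/fl) and H2B-GFP, and quiescence was induced with BMP4 and FGF2 in the absence of EGF. Setd1a is a histone H3 lysine methyltransferase found at active promoters, and LSD1, encoded by Kdm1a, removes methyl groups from the same lysine. ORY-1001 (ORY) is an inhibitor of LSD1. Lentivirus carrying Cre-GFP made KO cultures, and lentivirus carrying GFP alone made the cultures called WT, which hold the same floxed alleles and both transgenes.

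The 48 libraries form 12 groups of 4. KO and WT cultures were collected on day 4, in a count table of their own, and on days 5, 6 and 9, in another. The remaining table holds 4 groups of day 7, namely KO + ORY, WT + ORY, KO + DMSO and WT + DMSO, where DMSO was the vehicle. Loss of Setd1a, the presence of Cre and any recombination of other alleles by Cre cannot be told apart in this design. The paper reports that most but not all NSCs were infected, and it describes no sorting before RNA-seq. KO libraries can therefore include cells that kept Setd1a. It also reports more proliferating NSCs in KO cultures without ORY on days 7 and 9, and not on day 5. The part of uninfected or proliferating cells in the levels given here was not tested. According to the study's reporting summary, RNA-seq replicates were independent cultures. What a replicate number stands for is not given in the labels. In all 6 groups of days 5, 6 and 9, libraries 1 and 3 and libraries 2 and 4 were the closest pairs over all genes: a chi-square per degree of freedom between their counts was 1.79 to 2.40 for these pairs and 2.88 to 8.7 for the others, where counting noise alone gives about 1. Whether these pairs share a source was not tested, and the comparisons of these days were also fitted with the pairs summed, which leaves 2 values a group.

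Library totals ran between 3137352 and 20588555 counts. Setd1a itself had 0 to 65 counts per library and passed the threshold in no comparison, and its direction did not follow the genotype labels. Its mean level in CPM (counts scaled to a common library total) was 2.51 in KO and 1.63 in WT on day 4, and 2.23 for KO against 2.13 for WT on day 5. Day 6 had 3.88 for KO, against 2.16 for WT, with the groups apart (edgeR adjusted p = 0.171), and day 9 had 1.80 for KO, against 1.88 for WT. On day 7 Setd1a averaged 3.14 in KO + ORY and 2.25 in WT + ORY, with the groups apart (adjusted p = 0.453), whereas KO + DMSO over WT + DMSO gave a log2 fold change of -0.42 ± 0.26 (adjusted p = 0.209). Its counts include exons outside any deleted part, so these levels neither check the labels nor measure the deletion. The study examined Setd1a protein by immunostaining of day 5 cultures and reports diminished levels with Cre-GFP. That staining is not analysed here. All 10 markers of neural stem cells and radial glia were above 1 CPM in every group, with summed levels of 13400 to 21700 CPM. Of 8 oligodendrocyte lineage markers, 5 were above 1 CPM in every group, with sums of 165 to 412 CPM, and Sox10, Mbp and Mog were below it. Of 6 neuronal markers, 2 or 3 were above 1 CPM, with sums of 38.2 to 72.1 CPM, and Dcx, Rbfox3 and Eomes were below it.

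Bhlhe40 (also known as DEC1) and Bhlhe41 (DEC2) are basic helix-loop-helix repressors of the Orange subfamily. They bind the E-box CACGTG as homodimers or heterodimers, and they act in the circadian clock by repressing promoters that CLOCK and BMAL1 activate. Bhlhe40 is also a known target of the hypoxia-inducible factor. Dazap2 is a small proline-rich adaptor protein, and its human protein binds the Wnt effector TCF7L2 and the kinase HIPK2.

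Bhlhe40 (ENSMUSG00000030103) lies on chromosome 6 of GRCm38 at 108660629 to 108666925 on the plus strand, and its exons cover 4705 bases. Bhlhe41 (ENSMUSG00000030256) lies on the same chromosome at 145858243 to 145865558 on the minus strand, with 6720 exonic bases. Dazap2 (ENSMUSG00000000346) lies on chromosome 15 at 100615349 to 100620761 on the plus strand, with 2900 exonic bases. The libraries do not mark strand, so reads from antisense transcripts cannot be separated. An antisense gene, 0610040F04Rik, shares 2.51% of the exonic length of Bhlhe40, and Gm43909, which is not analysed here, shares 19% of that of Bhlhe41. The group means of 0610040F04Rik were at most 0.501 CPM. The exonic lengths given here include the shared stretches.

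The E-box is the letter string that Bhlhe40 and Bhlhe41 bind, so the promoters available for these genes were read for it. The set of RefSeq promoters used (GRCm38.p6) held Bhlhe41 and Dazap2. It had no entry for Bhlhe40, whose promoter was therefore not read. Bhlhe41 and Dazap2 both held CACGTG within 250 bases before the RefSeq start. The 30 bases around each match are printed 5′ to 3′ on the strand of the gene, with the E-box in capitals.
Bhlhe41, chr6:145865556-145865585, minus strand: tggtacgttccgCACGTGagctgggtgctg
Dazap2, chr15:100615613-100615642, plus strand: gtggacgaacgtCACGTGacacggaagtga
The match in Bhlhe41 lies 153 to 148 bases before the RefSeq start, and the stretch ends 3 bases inside the gene as GENCODE draws it. The match in Dazap2 lies 37 to 32 bases before the RefSeq start, inside the gene as GENCODE draws it. It sits in the middle of a palindrome of 10 letters. CACGTG, which reads alike on both strands, occurred in 1978 of 32851 promoters (6.02%), and inside a palindrome of 10 letters or more in 0.703%. The core letters of the hypoxia element, ACGTG on either strand, occurred in 16.6% of promoters and are part of every CACGTG. A match of letters is a description of the sequence and does not show binding.

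Bhlhe40 was expressed at an intermediate level in every group, and it differed between genotypes and with ORY in several comparisons. Counts were scaled to CPM with TMM factors, and fold changes, standard errors (SE) and p-values came from edgeR's quasi-likelihood test with Benjamini-Hochberg adjustment over all genes tested in a table. The threshold was an adjusted p of 0.05. In bulk RNA, fewer cells that express a gene and less of its RNA per cell cannot be told apart.

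On day 4, Bhlhe40 stood at 88.8, 85.7, 79.2 and 98.3 CPM in the KO libraries, against 76.3, 84.8, 89.3 and 87.5 CPM in the WT libraries. The groups overlapped, and the log2 fold change of KO over WT was 0.06 ± 0.09 (SE, edgeR adjusted p = 0.851). None of the 3 genes passed the threshold on day 4, when 1.59% of all genes tested did.

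On day 5, the KO libraries had 199.1, 221.3, 205.9 and 227.3 CPM of Bhlhe40, against 265.7, 282.9, 280.2 and 283 CPM in the WT libraries. Every KO library lay below every WT library, and the log2 fold change was -0.38 ± 0.07 (SE). Oligodendrocyte lineage markers summed to 239 to 259 CPM in KO and 171 to 195 CPM in WT on this day. Those of neural stem cells summed to 20700 to 21000 CPM in KO and 21000 to 21700 CPM in WT. Their part in the day 5 values was not tested. Over all genes 15.0% passed the threshold on day 5, and nothing is read from the count of the 3 genes, since this contrast chose them.

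On day 6, Bhlhe40 measured 162.3, 205.1, 178.7 and 199.9 CPM in the KO libraries, against 183.8, 218.9, 190.8 and 220.3 CPM in the WT libraries. The groups overlapped, and the log2 fold change was -0.12 ± 0.07 (edgeR adjusted p = 0.312). The 95% interval ran from -0.27 to 0.02. None of the 3 genes passed the threshold on day 6, when 13.1% of all genes did.

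On day 9, the levels of Bhlhe40 were 225.7, 261.9, 237.4 and 268.6 CPM in KO, against 267.5, 318.8, 295.8 and 329.5 CPM in WT. The highest KO library just exceeded the lowest WT library. Bhlhe40 fell in KO with a log2 fold change of -0.29 ± 0.07 (edgeR adjusted p = 0.00704), and 2 of the 3 genes passed the threshold where 11.8% of all genes did. The oligodendrocyte lineage markers summed to 228 to 241 CPM in KO and 165 to 187 CPM in WT on day 9, and the neural stem cell markers to 19400 to 19900 CPM in KO and 20000 to 20500 CPM in WT, and their part in the results of day 9 was not tested. The call was lost when libraries 1 and 3, and libraries 2 and 4, were summed within each group, which leaves 2 values per group (adjusted p = 0.23).

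**Figure D1:**
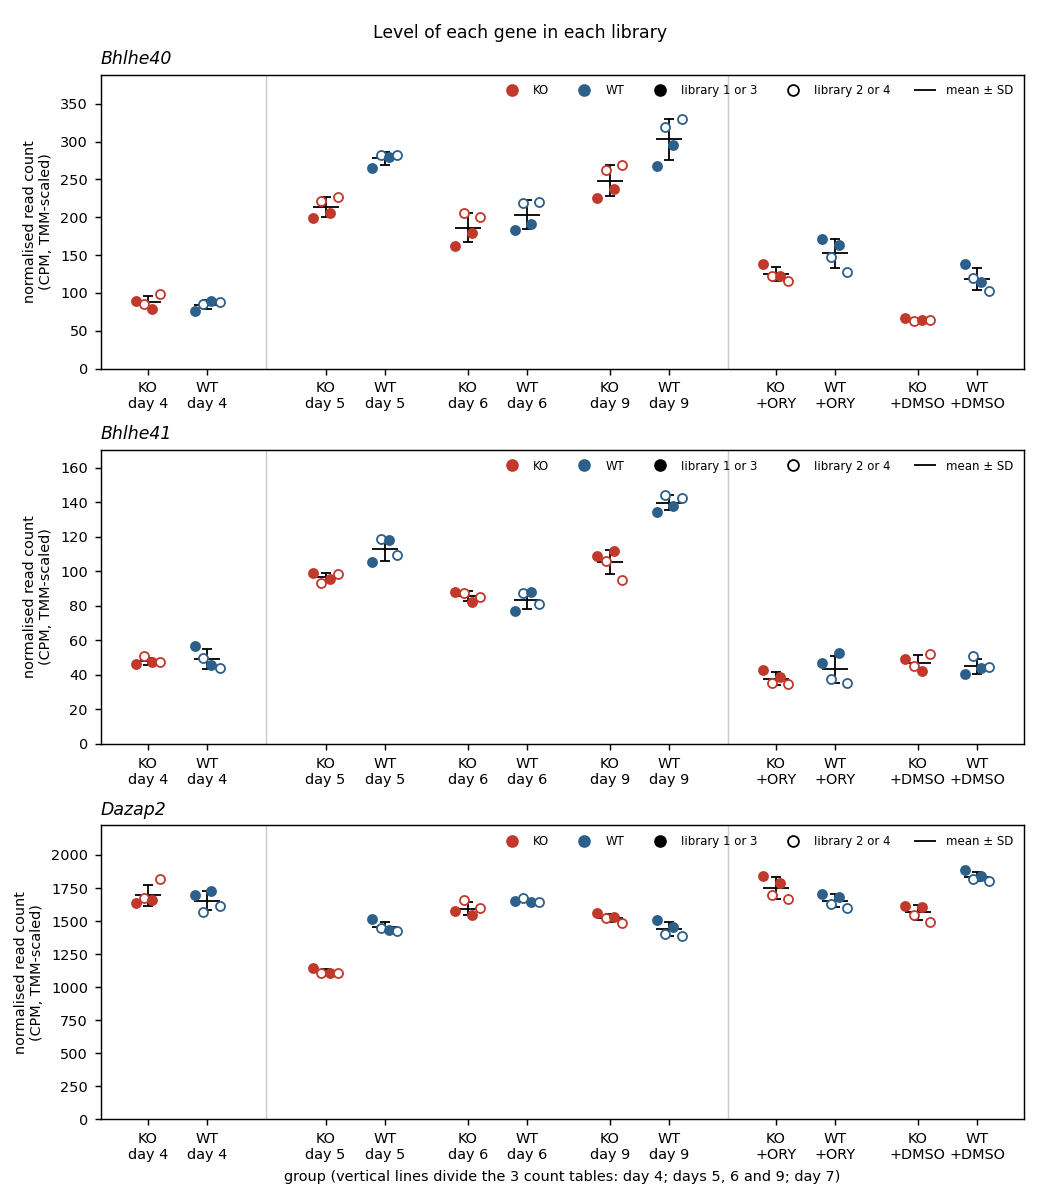
Level of Bhlhe40, Bhlhe41 and Dazap2 in each of the 48 libraries, in CPM scaled with TMM factors, with KO in red, WT in blue, filled points for libraries 1 and 3, open points for libraries 2 and 4, and bars for the group mean ± SD (n = 4). Bhlhe40 in KO + DMSO lies between 62.6 and 66.4 CPM, below every other library of day 7, and Dazap2 in KO on day 5 lies between 1107 and 1148 CPM, below every other library of days 5, 6 and 9.

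The plot of the level of each gene in each library shows a further regularity in Bhlhe40. In all 6 groups of days 5, 6 and 9, libraries 2 and 4 both had more Bhlhe40 than libraries 1 and 3. Of the 12549 genes tested in that table, 129 (1.03%) had this order in all 6 groups and 184 (1.47%) had the opposite one. Neither Bhlhe41 nor Dazap2 kept such an order in all 6 groups. The split of odd and even numbers was not particular to Bhlhe40, since the same pairs were the closest over all genes.

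Read within the odd and the even numbers, the day 9 groups of Bhlhe40 were separate. Libraries 1 and 3 had 225.7 and 237.4 CPM in KO, against 267.5 and 295.8 CPM in WT. Libraries 2 and 4 had 261.9 and 268.6 CPM in KO, against 318.8 and 329.5 CPM in WT. With the odd and even numbers as a term in the model, the log2 fold change on day 9 stayed at -0.29 (edgeR adjusted p = 1.08e-05). That on day 6 stayed at -0.12 (adjusted p = 0.078). The term was chosen after seeing the data, and it follows the split seen in Bhlhe40 itself. It leaves the libraries within each closest pair as the replicates, so its p-values do not measure the spread between pairs. With the pairs summed, the day 9 call was lost (edgeR adjusted p = 0.23).

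The largest difference of Bhlhe40 between genotypes in a tested comparison was on day 7. In KO + DMSO it measured 66.4, 62.6, 64.2 and 64.7 CPM, against 137.9, 119.2, 115 and 102.8 CPM in WT + DMSO. All KO + DMSO libraries lay far below all WT + DMSO libraries. Bhlhe40 fell to 0.543 of the WT + DMSO level, a log2 fold change of -0.88 ± 0.09 (edgeR adjusted p = 2.46e-08).

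Many genes differed between KO + DMSO and WT + DMSO: 36.0% of those tested passed the threshold, as did 2 of the 3 genes. The fold change of Bhlhe40 stood lower than that of all but 5.76% of genes. The summed level of 8 oligodendrocyte lineage markers, 5 of them above 1 CPM, was 378 to 412 CPM in KO + DMSO and 205 to 226 CPM in WT + DMSO, with Sox10, Mbp and Mog below 1 CPM. The neural stem cell markers summed to 18000 to 18800 CPM in KO + DMSO and 13400 to 14200 CPM in WT + DMSO. The part of these shifts in the result was not tested.

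With ORY, Bhlhe40 in KO reached the range of the WT cultures. Its levels were 137.8, 123, 123 and 115.3 CPM in KO + ORY, against the 62.6 to 66.4 CPM of KO + DMSO. The groups were far apart, and Bhlhe40 rose 1.93-fold, a log2 fold change of 0.95 ± 0.09 (edgeR adjusted p = 5.36e-09). The neural stem cell markers summed to 14800 to 15100 CPM in KO + ORY and 18000 to 18800 CPM in KO + DMSO, and the oligodendrocyte lineage markers to 354 to 396 CPM in KO + ORY and 378 to 412 CPM in KO + DMSO. Their part in the result was not tested. All 3 genes passed the threshold for ORY over DMSO in KO, where 38.7% of all genes did. Bhlhe40 and Dazap2 were higher with ORY, and Bhlhe41 was lower. The KO + DMSO libraries serve in both this comparison and the preceding one, so the values share those libraries.

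In WT cultures Bhlhe40 rose with ORY as well. It stood at 171.2, 148.1, 163.4 and 127.5 CPM in WT + ORY, against the 102.8 to 137.9 CPM of WT + DMSO. The groups overlapped at 1 library of each, and the log2 fold change was 0.36 ± 0.09 (edgeR adjusted p = 0.0062). The oligodendrocyte lineage markers summed to 263 to 300 CPM in WT + ORY and 205 to 226 CPM in WT + DMSO, and the neural stem cell markers to 14600 to 14900 CPM in WT + ORY and 13400 to 14200 CPM in WT + DMSO, whose part in the result was not tested. Of the 3 genes, 2 passed the threshold for ORY over DMSO in WT, where 15.1% of genes did. Bhlhe40 was higher with ORY, and Dazap2 was lower.

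The ORY response of Bhlhe40 was larger in KO than in WT. The difference between the 2 log2 fold changes was 0.59 ± 0.13 (edgeR interaction, adjusted p = 0.00165), with a 95% interval of 0.34 to 0.84. The interaction passed the threshold for 17.9% of genes and for 2 of the 3 genes. It kept its direction and its side of the threshold under every alternative run.

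Between the 2 ORY groups, Bhlhe40 had means of 125 ± 9.41 CPM in KO + ORY and 153 ± 19.3 CPM in WT + ORY (SD, n = 4 each), and the groups overlapped. The log2 fold change was -0.29 ± 0.09 (edgeR adjusted p = 0.106), and none of the 3 genes passed the threshold, where 1.15% of all genes did. KO + ORY lay below WT + ORY at each of the 4 replicate numbers. With the replicate number as a block, which did not meet the check of pairing for these groups, the value was -0.29 (adjusted p = 0.00248). Without WT + ORY library 4 the value was -0.37 (adjusted p = 0.0347), and with library size alone as the scaling it was -0.34 (adjusted p = 0.0445). KO + ORY set against WT + DMSO gave 0.07 ± 0.09 (adjusted p = 0.661, 95% interval -0.11 to 0.24), in a comparison where 15.7% of all genes and none of the 3 passed the threshold.

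**Figure D2:**
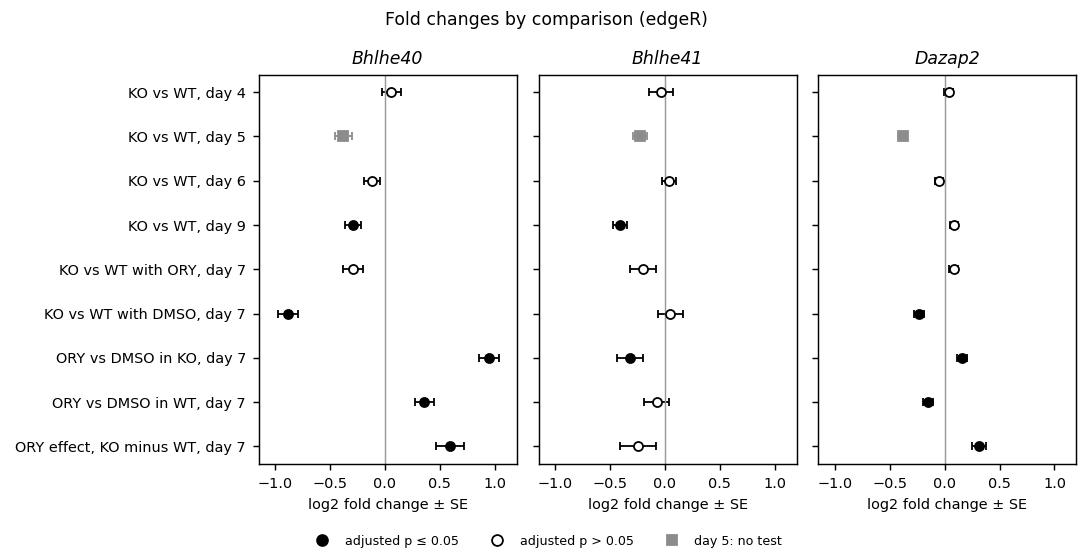
Log2 fold change ± SE of Bhlhe40, Bhlhe41 and Dazap2 in 8 comparisons and in the difference of the ORY effects (KO minus WT), from edgeR, with filled circles for an adjusted p of 0.05 or less, open circles for a larger one and grey squares for day 5, which chose the genes. Bhlhe40 reaches -0.88 in KO over WT with DMSO and 0.95 in KO for ORY over DMSO, whereas Bhlhe41 has 0.05 and -0.32 in the same comparisons.

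The plot of fold changes by comparison sets the 3 genes side by side. Bhlhe40 lies left of 0 in KO over WT in every comparison but day 4, and right of 0 for ORY over DMSO in both genotypes. In tested comparisons of KO with WT, Bhlhe41 fell with it on day 9 and Dazap2 fell with it in KO + DMSO.

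Over time, Bhlhe40 was lower on day 6 than on day 5 in both genotypes. The day 5 libraries, whose contrast chose the 3 genes, serve in every comparison over time, so these tests are not independent of the choice. The log2 fold change of day 6 over day 5 was -0.19 ± 0.07 in KO (edgeR adjusted p = 0.0327, groups overlapping) and -0.45 ± 0.07 in WT (adjusted p = 4.08e-06, groups apart). The KO value lost its call without KO day 5 library 2 or 4 or KO day 6 library 1 or 3, with adjusted p between 0.0808 and 0.125, and with the libraries summed (adjusted p = 0.206). Neural stem cell markers summed to 20700 to 21000 CPM in KO and 21000 to 21700 CPM in WT on day 5. Their day 6 sums were 15300 to 15700 CPM in KO and 15800 to 16000 CPM in WT. Oligodendrocyte lineage markers in WT summed to 171 to 195 CPM on day 5 and 258 to 284 CPM on day 6. In KO these sums were 239 to 259 CPM on day 5 and 256 to 283 CPM on day 6. The part of these shifts in the comparisons over time was not tested. Day 6 differed from day 5 in 43.0% of genes in KO and 44.1% in WT, and all 3 genes passed the threshold in each. Bhlhe40 and Bhlhe41 were lower on day 6 in both genotypes, and Dazap2 was higher.

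On day 9, Bhlhe40 was higher than on day 5 in KO. The log2 fold change of day 9 over day 5 was 0.21 ± 0.07 in KO (edgeR adjusted p = 0.0328) and 0.12 ± 0.07 in WT (adjusted p = 0.231, or 0.0351 with the replicate number as a block). In KO the call was lost without day 5 library 1 or 3 or day 9 library 2 or 4 (adjusted p 0.0908 to 0.137), with library size alone (0.175) and with the libraries summed (0.238). For day 9 over day 5, 24.4% of genes and 2 of the 3 genes passed in KO, against 22.7% of genes and 1 of the 3 in WT.

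In the ordering of group means on days 5, 6 and 9, WT day 9 was highest with 303 ± 27.5 CPM, followed by WT day 5 (278 ± 8.27), KO day 9 (248 ± 20.2), KO day 5 (213 ± 13.1), WT day 6 (203 ± 18.9) and KO day 6 (186 ± 19.8, SD, n = 4 each). Each group in that order overlapped the next. On day 7 the order was WT + ORY, KO + ORY, WT + DMSO and KO + DMSO, and KO + DMSO, with 64.5 ± 1.53 CPM, was the only group apart from its neighbour. The 3 tables were scaled separately, so levels of days 4 and 7 were not tested against those of days 5, 6 and 9.

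Bhlhe41, the paralog, followed Bhlhe40 on days 5 and 9 and not on day 7. In RPKM, the CPM divided by the exonic length in kilobases, its group means ran between 5.64 and 20.8, against 13.7 to 64.4 for Bhlhe40 and 386 to 633 for Dazap2. Bhlhe41 was thus the least abundant of the 3 per length in every group.

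On day 4, Bhlhe41 measured 46, 50.6, 47.5 and 47.6 CPM in KO, against 56.7, 50, 45.9 and 44.2 CPM in WT. WT library 1 was the highest and the groups overlapped, with a log2 fold change of -0.04 ± 0.11 (edgeR adjusted p = 0.938). On day 5, the KO libraries had 99, 93.3, 95.3 and 98.3 CPM, against 105.3, 118.6, 118.2 and 109.2 CPM in WT. All KO libraries lay below all WT libraries, and the log2 fold change, part of the choice of the gene, was -0.23 ± 0.06 (SE).

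On day 6, Bhlhe41 did not separate the genotypes. It had 87.8, 87.7, 81.9 and 85.2 CPM in KO, against 77.2, 87.4, 87.8 and 81.2 CPM in WT, and the log2 fold change was 0.04 ± 0.07 (edgeR adjusted p = 0.778, 95% interval -0.09 to 0.17). The sign turned with a correction for GC content and length (-0.0057) and without WT library 1 (-0.0037).

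On day 9, Bhlhe41 had 108.7, 106.1, 111.5 and 95.1 CPM in the KO libraries, against 134.5, 144.2, 137.7 and 142.4 CPM in the WT libraries. The groups were well apart. Bhlhe41 fell in KO with a log2 fold change of -0.41 ± 0.06 (edgeR adjusted p = 3.5e-05), and this call held under every alternative run.

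On day 7 with vehicle, where Bhlhe40 fell in KO, Bhlhe41 stood at 49, 44.9, 42.2 and 52.2 CPM in KO + DMSO, against 40.4, 50.9, 44.2 and 44.8 CPM in WT + DMSO. The groups overlapped throughout, and the log2 fold change was 0.05 ± 0.11 (edgeR adjusted p = 0.763, 95% interval -0.17 to 0.27). With library size alone as the scaling the value was -0.0546. That scaling moved the median of all genes in this comparison by -0.105.

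ORY was followed by a lower level of Bhlhe41 in KO. It measured 42.7, 35.4, 38.7 and 34.8 CPM in KO + ORY, against the 42.2 to 52.2 CPM of KO + DMSO, with the groups touching at their edges. The log2 fold change was -0.32 ± 0.12 (edgeR adjusted p = 0.0308). The call was lost without KO + DMSO library 1 or 4 or KO + ORY library 2 or 4 (adjusted p 0.073 to 0.0892) and with library size alone (0.117).

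In WT + ORY, Bhlhe41 had 47, 37.9, 52.5 and 35.1 CPM, against the 40.4 to 50.9 CPM of WT + DMSO. Both extremes were WT + ORY libraries, and the log2 fold change was -0.07 ± 0.11 (edgeR adjusted p = 0.738). Its sign turned without WT + DMSO library 2 (0.0019) or WT + ORY library 4 (0.0234). The difference between the ORY effects in KO and WT was -0.25 ± 0.16 (adjusted p = 0.329), and KO + ORY over WT + ORY gave -0.20 ± 0.12 (adjusted p = 0.459, and -0.29 to -0.09 with each library left out). KO + ORY over WT + DMSO gave -0.27 ± 0.11 (adjusted p = 0.116), or -0.30 with the correction for GC content and length (adjusted p = 0.0433).

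Over time in culture, Bhlhe41 was lower on day 6 than on day 5 in both genotypes, like Bhlhe40. Day 6 over day 5 gave a log2 fold change of -0.17 ± 0.07 in KO (edgeR adjusted p = 0.0307, groups apart) and -0.44 ± 0.07 in WT (adjusted p = 8.26e-07). The KO call was lost without KO day 5 library 1 or 4 or KO day 6 library 3 or 4 (adjusted p 0.0505 to 0.0893), without the filter on low counts (0.116) and with the libraries summed (0.129). Day 9 over day 5 gave 0.13 ± 0.07 in KO (adjusted p = 0.155) and 0.31 ± 0.06 in WT (adjusted p = 0.000388, or 0.0504 with the libraries summed). A call in only 1 genotype does not test the genotypes against each other.

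Within a library, the ratio of Bhlhe40 to Bhlhe41 per length depends on no scaling factor, and it is given as a description. On day 7 it was 1.93, 1.99, 2.17 and 1.77 in KO + DMSO, against 4.87, 3.35, 3.71 and 3.28 in WT + DMSO. With ORY it was 4.61, 4.96, 4.55 and 4.73 in KO, against 5.2, 5.59, 4.44 and 5.19 in WT. Every KO + DMSO library thus held less Bhlhe40 for its Bhlhe41 than any other library of day 7.

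**Figure D3:**
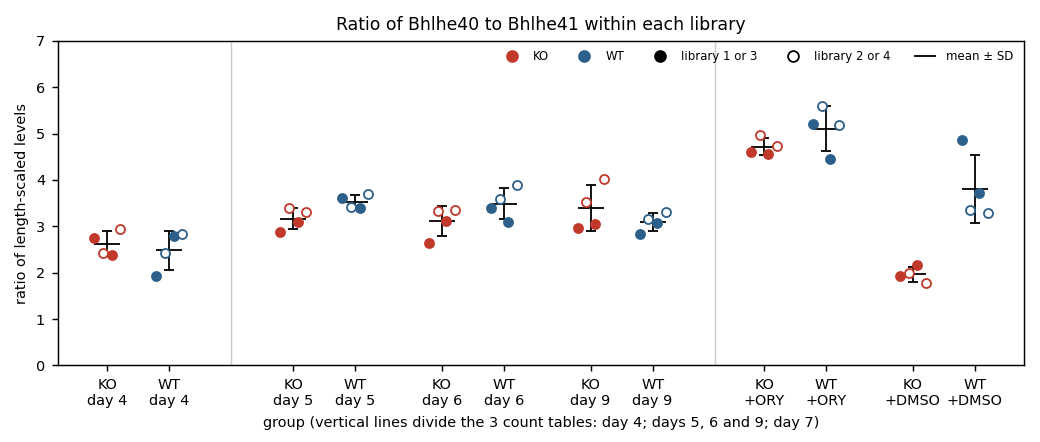
Ratio of Bhlhe40 to Bhlhe41 per exonic length in each library, with KO in red, WT in blue, filled points for libraries 1 and 3, open points for libraries 2 and 4, and bars for the group mean ± SD (n = 4). The KO + DMSO libraries lie between 1.77 and 2.17, and the 9 groups other than KO + DMSO and the 2 of day 4 have means between 3.10 and 5.11.

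As the plot of the ratio within each library shows, the other days gave means in a narrower range. Day 4 had means of 2.62 ± 0.273 for KO, against 2.49 ± 0.42 for WT (SD, n = 4 each). Day 5 had 3.16 ± 0.234 for KO, against 3.53 ± 0.15 for WT, and day 6 had 3.11 ± 0.332 for KO, against 3.49 ± 0.327 for WT. On day 9 the order was turned, with 3.39 ± 0.493 for KO, against 3.10 ± 0.197 for WT. The ranges of the libraries overlapped between genotypes on each of these days, on day 5 only at 3.39. The lowest WT library of day 4, at 1.92, fell within the range of KO + DMSO. The size of the ratio depends on the length assigned to each gene, and with the longest annotated transcripts the means on day 7 were 2.72 in KO + DMSO and 5.25 in WT + DMSO.

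**Figure D4:**
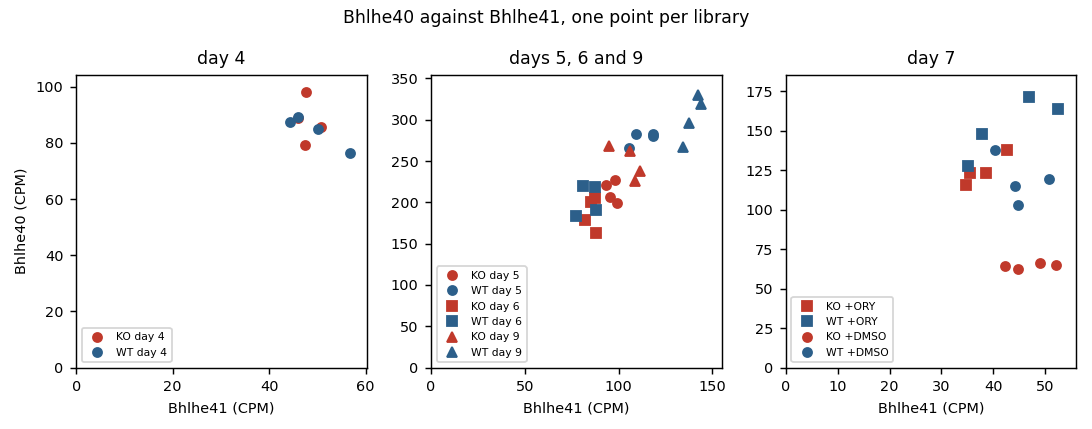
Level of Bhlhe40 (CPM) against the level of Bhlhe41 (CPM) in each library, in separate panels for day 4, for days 5, 6 and 9, and for day 7. On days 5, 6 and 9 libraries with more Bhlhe41 had more Bhlhe40 (Pearson r = 0.86 over the 24 libraries), whereas on day 7 the KO + DMSO libraries form a row at 62.6 to 66.4 CPM of Bhlhe40 across 42.2 to 52.2 CPM of Bhlhe41.

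The plot of 1 paralog against the other shows how their joint variation differed between the tables. Over the libraries of days 5, 6 and 9 the correlation of log2 CPM was 0.86, and the points share the day and genotype of each group. Over the 16 libraries of day 7 it was -0.253, and over the 8 libraries of day 4 it was -0.604. These correlations are descriptions across libraries of several groups.

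Dazap2 was far more abundant than both paralogs, and its counts of 4115 to 37803 per library gave the smallest standard errors. On day 4 it measured 1633, 1674, 1656 and 1815 CPM in KO, against 1698, 1572, 1730 and 1617 CPM in WT. The groups overlapped, with a log2 fold change of 0.04 ± 0.04 (edgeR adjusted p = 0.808).

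On day 5, Dazap2 had 1148, 1111, 1109 and 1107 CPM in the KO libraries, against 1514, 1451, 1434 and 1424 CPM in the WT libraries. The groups lay far apart for their narrow spread, and the log2 fold change, part of the choice of the gene, was -0.38 ± 0.04 (SE). No other group of days 5, 6 and 9 reached so low a level.

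By day 6 Dazap2 stood at 1573, 1660, 1549 and 1596 CPM in KO, against 1655, 1674, 1645 and 1646 CPM in WT. KO library 2 lay within the WT range, and the log2 fold change was -0.05 ± 0.04 (edgeR adjusted p = 0.384). On day 9 it had 1561, 1524, 1530 and 1489 CPM in KO, against 1506, 1405, 1453 and 1389 CPM in WT. Of the KO libraries, 3 lay above every WT library, with a log2 fold change of 0.09 ± 0.04 that missed the threshold (adjusted p = 0.145). It passed with the replicate number as a block (adjusted p = 0.0437) and in limma-voom (0.0457).

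Within KO, Dazap2 rose on both later days. Day 6 over day 5 gave a log2 fold change of 0.51 ± 0.04 in KO (edgeR adjusted p = 1.13e-13) and 0.19 ± 0.04 in WT (adjusted p = 0.000115). Day 9 over day 5 gave 0.45 ± 0.04 in KO (adjusted p = 3.28e-11) and -0.02 ± 0.04 in WT (adjusted p = 0.791), and the sign in WT turned with the correction for GC content and length (0.0249). These comparisons use the day 5 KO libraries, whose low level chose the gene.

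The difference between the genotypes in these changes contains the day 5 contrast and is therefore described without a test. For day 6 over day 5, KO minus WT was 0.33 ± 0.05 for Dazap2, 0.26 ± 0.10 for Bhlhe40 and 0.26 ± 0.09 for Bhlhe41 on the log2 scale. For day 9 over day 5 it was 0.47 ± 0.05 for Dazap2, 0.09 ± 0.10 for Bhlhe40 and -0.18 ± 0.09 for Bhlhe41. Over all genes, 12.6% passed the threshold for the first of these differences and 9.21% for the second.

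On day 7 with vehicle, Dazap2 was lower in KO again. It measured 1612, 1545, 1607 and 1496 CPM in KO + DMSO, against 1884, 1821, 1840 and 1801 CPM in WT + DMSO. The groups did not overlap, and Dazap2 fell with a log2 fold change of -0.23 ± 0.04 (edgeR adjusted p = 0.000202). With the correction for GC content and length the value was -0.14 (adjusted p = 0.0115), and with library size alone it was -0.34. In this comparison 31.7% of all genes had a lower fold change than Dazap2, against 5.76% for Bhlhe40.

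With ORY, Dazap2 changed in opposite directions in the 2 genotypes. In KO + ORY it had 1843, 1694, 1790 and 1665 CPM, above every KO + DMSO library, with a log2 fold change of 0.16 ± 0.04 (edgeR adjusted p = 0.00595). In WT + ORY it had 1702, 1626, 1684 and 1598 CPM, below every WT + DMSO library, with a log2 fold change of -0.15 ± 0.04 (adjusted p = 0.021). The difference between the 2 effects was 0.31 ± 0.06 (edgeR interaction, adjusted p = 0.000866), and it kept its direction and its call under every alternative run.

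The separate ORY effects on Dazap2 were less stable than their difference. In KO the value was 0.0474 with the correction for GC content and length (adjusted p = 0.423). In WT the call was lost without WT + DMSO library 1 or WT + ORY library 2 or 4 (adjusted p 0.0597 to 0.0672) and without the filter on low counts (0.0645).

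KO + ORY over WT + ORY gave 0.08 ± 0.04 for Dazap2 (edgeR adjusted p = 0.42). KO + ORY over WT + DMSO gave -0.07 ± 0.04 (adjusted p = 0.301, or 0.036 with the replicate number as a block). In the ordering of day 7, WT + DMSO was highest with 1836 ± 35.4 CPM, then KO + ORY (1748 ± 82.9), WT + ORY (1652 ± 48.7) and KO + DMSO (1565 ± 55.2, SD, n = 4 each). Each overlapped its neighbour in that order.

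The study named Atr, Fbxl5 and Pgk1 beside these genes, and all were also chosen on day 5. Atr, a kinase of the DNA damage checkpoint, fell in KO on day 9 (log2 fold change -0.45 ± 0.08, edgeR adjusted p = 0.000341) and had -0.32 ± 0.15 in KO + DMSO (adjusted p = 0.111). Fbxl5, an iron-sensing subunit of a ubiquitin ligase, fell on day 9 (-0.27 ± 0.08, adjusted p = 0.0268) and in KO + DMSO (-0.31 ± 0.08, adjusted p = 0.00422). Pgk1, the glycolytic enzyme phosphoglycerate kinase, shared more of the day 7 pattern of Bhlhe40. It fell in KO + DMSO (-0.51 ± 0.07, adjusted p = 2.98e-06), rose with ORY in KO (0.43 ± 0.07, adjusted p = 3.31e-05), and had an interaction of 0.32 ± 0.10 (adjusted p = 0.0285). On day 6, when Bhlhe40 did not pass, Pgk1 rose in KO (0.47 ± 0.05, adjusted p = 3.91e-08). On day 9 Pgk1 fell in KO, as Atr and Fbxl5 did (-0.15 ± 0.05, edgeR adjusted p = 0.0449). With the libraries summed, the calls over all genes went from 1479 to 141 on day 9 and from 1649 to 217 on day 6. The summed fit is not given here for Atr, Fbxl5 and Pgk1, nor for the lists that follow. Their calls on these days take the 4 libraries of a group as independent.

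Of the related Orange repressors of the Hes and Hey families, some of which act downstream of Notch, 3 of 10 were counted well enough to test. All 3 rose in KO + DMSO, opposite to Bhlhe40, with a median log2 fold change of 0.93 beside -0.02 for all genes. Hey1 rose in KO + DMSO by 0.39 ± 0.11 (edgeR adjusted p = 0.00459) and fell with ORY in KO (-0.30 ± 0.11, adjusted p = 0.0285). It was the only 1 of the 3 that passed with ORY in KO. In KO over WT on days 4, 6 and 9 none of the 3 passed, where 1.59%, 13.1% and 11.8% of all genes did. The share of all genes past the threshold was 36.0% in KO + DMSO and 38.7% for ORY in KO.

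The E proteins and the Id proteins, partners and inhibitors of helix-loop-helix factors, moved in both directions. In KO + DMSO, 3 of 7 rose and 3 fell, where 36.0% of all genes passed, and the median was -0.11. Id2 (log2 fold change 0.40 ± 0.05, edgeR adjusted p = 1.58e-07) and Id4 (0.78 ± 0.09, adjusted p = 1.43e-07) were higher, and Id3 (-0.72 ± 0.10, adjusted p = 1.43e-06) was lower. With ORY in KO, where 38.7% of all genes passed, 3 rose and 2 fell, among them Id3 (0.84 ± 0.10, adjusted p = 8.29e-08) and Id4 (-0.51 ± 0.09, adjusted p = 4.73e-05). None passed on days 4 and 6, where 1.59% and 13.1% of all genes did, and 2 fell in KO on day 9, where 11.8% did.

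In the circadian clock network, in which Bhlhe40 and Bhlhe41 are repressors, the genes that passed went in both directions. Of 21 genes, 2 rose and 3 fell in KO + DMSO, where 36.0% of all genes passed. Per3, a repressor of the clock, rose in KO + DMSO by 0.94 ± 0.09 on the log2 scale (edgeR adjusted p = 4.17e-09) and fell with ORY in KO (-1.45 ± 0.09, adjusted p = 1.32e-12), against the direction of Bhlhe40 in both. On day 9 Per3 fell in KO (-0.49 ± 0.10, adjusted p = 0.00134). With ORY in KO, 3 of the 21 rose and 6 fell, where 38.7% of all genes passed, and in WT 2 rose and 5 fell, where 15.1% did. Between the genotypes, 3 rose and none fell on day 6 (13.1% of all genes passed), and 2 rose and 2 fell on day 9 (11.8%). None passed on day 4 (1.59%) or with ORY (1.15%).

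The hypoxia response list was followed because Bhlhe40 is a known target of the hypoxia-inducible factor. On day 6, 13 of 21 genes rose in KO and none fell, where 13.1% of all genes passed, with a median log2 fold change of 0.58 beside 0 for all genes, while Bhlhe40 had -0.12. Pdk1, which restrains pyruvate oxidation, rose by 0.78 ± 0.08 (edgeR adjusted p = 7.94e-09), and Bnip3, a mitophagy receptor, by 0.64 ± 0.05 (adjusted p = 1.85e-10). On day 4, 4 of 19 fell in KO and none rose, where 1.59% of all genes passed, and on day 9, 5 of 21 fell and none rose, where 11.8% did.

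On day 7 genes of the hypoxia list passed in both directions. In KO + DMSO 3 of 20 rose and 4 fell, where 36.0% of all genes passed, with Ldha, the lactate dehydrogenase subunit, at -0.97 ± 0.07 (edgeR adjusted p = 3.46e-11) and Bnip3 at -0.83 ± 0.07 (adjusted p = 8e-10). With ORY in KO, 2 rose and 3 fell, where 38.7% of all genes passed, and Ldha rose by 1.17 ± 0.07 (adjusted p = 6.03e-13). Higd1a, a mitochondrial protein induced by hypoxia, went the other way, with 0.48 ± 0.07 in KO + DMSO (adjusted p = 6.03e-06) and -0.50 ± 0.07 with ORY in KO (adjusted p = 2.78e-06).

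Of 15 Wnt effectors and partners of Dazap2, none of the 13 tested passed on day 4 (1.59% of all genes did), 2 of 14 rose in KO on day 6 (13.1%), and 1 of 14 fell on day 9 (11.8%). In KO + DMSO, 4 of 15 rose and 1 fell, where 36.0% of all genes passed. Tcf7l2, which encodes the TCF protein that human DAZAP2 binds, rose in KO + DMSO (log2 fold change 0.57 ± 0.07, edgeR adjusted p = 1.42e-07) and fell with ORY in KO (-0.70 ± 0.07, adjusted p = 4.16e-09), against Dazap2 in both. Ctnnb1, which encodes β-catenin, rose in KO on day 6 (0.27 ± 0.05, adjusted p = 0.000203) and in KO + DMSO (0.25 ± 0.05, adjusted p = 0.000706). With ORY, 1 rose and 4 fell in KO, where 38.7% of all genes passed, and 1 rose and 3 fell in WT, where 15.1% did.

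On day 5, where 15.0% of all genes passed, 1 of 3 Hes and Hey genes was higher in KO. Of 7 E and Id proteins 1 was higher and 1 lower, of 21 clock genes 1 was higher and 2 lower, of 21 hypoxia genes 1 was higher and 4 lower, and of 14 Wnt genes 1 was lower. In KO + ORY over WT + ORY, where 1.15% of all genes passed, 1 of the E and Id proteins was higher and 1 hypoxia gene lower.

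The genes most like each of the 3 were sought over the 48 libraries, as the Pearson correlation of log2 CPM after the mean of each table was subtracted, among 5751 genes whose log2 CPM averaged 4 or more in every table. The libraries share groups and tables, so the values are descriptions. Bhlhe40 was followed most closely by Pcdh9 (r = 0.899), a protocadherin, Tpi1 (0.895), the glycolytic triosephosphate isomerase, and Babam2 (0.889). The correlation of Bhlhe40 with Bhlhe41 was 0.289 and with Dazap2 0.127.

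Bhlhe41 was most like Pde1c (r = 0.807) and Pde3b (0.793), which encode cyclic nucleotide phosphodiesterases, and Mir22hg (0.791), the host transcript of a microRNA. Dazap2 was most like Oat (0.879), the ornithine aminotransferase, Hipk1 (0.836), a kinase, and Arl6ip1 (0.825). On day 4 the sign of several of these correlations differed from that in the other tables, for example -0.135 for Bhlhe40 with Pcdh9 over 8 libraries.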

How the data were processed

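Total RNA of 48 cultures was made into SMART-seq2 libraries, which do not mark strand. Per the labels and the study's methods, the authors used bcl2fastq 2.17.1.14, Trimmomatic 0.32 and STAR 2.5.2a on GRCm38, and the deposited tables hold raw counts of uniquely mapped reads per gene, with no normalization. Multimapped reads were discarded, so reads shared with near-identical copies, such as the 5.37% of 75-base stretches that Dazap2 shares with the pseudogene Gm47021, are lost or uncertain. Counts without a gene symbol came to at most 0.202% of a library.

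The 3 tables were fitted separately in edgeR 4.0.16 (R 4.3.3): filterByExpr (minimum count 10, minimum total 15), TMM, and the quasi-likelihood F test with all groups of the table in a single fit. The tests covered 11430 genes for day 4, 12549 for the table of days 5, 6 and 9 and 11952 for day 7. Alternatives used other scalings and filters, DESeq2 1.42.0, limma-voom 3.58.1, a correction for GC content and length, the replicate number as a block, summed libraries, and each library left out in turn. The model was tested on simulated data in which every library was drawn independently, so that test does not bear on libraries that may share a source. No 2 libraries of a group agreed within counting noise. Gene models are those of GENCODE vM21, and promoters those of RefSeq (GRCm38.p6), which matched Bhlhe41 and Dazap2.

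Besides Bhlhe40, Bhlhe41, Dazap2, Atr, Fbxl5, Pgk1, Setd1a and Kdm1a, the text names genes of a list only where they were called, averaged a log2 CPM of 3 or more and had one of the 3 lowest p-values of their list in that comparison, and the 3 genes most correlated with each of Bhlhe40, Bhlhe41 and Dazap2. It names a part of these. The genes and lists were chosen with earlier results of these data known.

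Libraries with the same replicate number were checked for shared deviations. Over all genes tested, no comparison had every pair above 0.1. Over genes whose log2 CPM averaged 4 or more, all 4 pairs were above 0.1 on day 6, on day 9, for ORY in KO, for KO + ORY over WT + DMSO, for day 6 over day 5 in both genotypes and for day 9 over day 5 in WT. The labels do not say what a number marks.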

Additional observations from a re-analysis of the deposited data

Results flagged for a closer look

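Among 48 sets of 4 libraries examined for a library far from the other 3, 2 had a gap to the nearest that, divided by the range, exceeded Dixon's 95% critical value, where chance gives about 1 in 20. Bhlhe40 in WT day 5 library 1 stood at 265.7 CPM, below the other 3 at 280.2 to 283 CPM (ratio 0.838). Dazap2 in KO day 5 library 1 stood at 1148 CPM, above the other 3 at 1107 to 1111 CPM (ratio 0.902). Both lie on their own group's side of the day 5 difference.

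The ORY effect differed between KO and WT for 2 of the 3 genes by a test of the difference itself. It was 0.59 ± 0.13 higher in KO on the log2 scale for Bhlhe40 and 0.31 ± 0.06 higher in KO for Dazap2 (edgeR interaction, adjusted p = 0.00165 for Bhlhe40 and 0.000866 for Dazap2). Bhlhe40 rose in both genotypes and Dazap2 only in KO, with a fall in WT. For Bhlhe41 the difference was -0.25 ± 0.16 (adjusted p = 0.329).

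For Dazap2 the change after day 5 was flagged as well, since its genotype difference passed the threshold. It was 0.33 ± 0.05 for day 6 over day 5 and 0.47 ± 0.05 for day 9 over day 5 (KO minus WT, log2). Both values contain the low KO level of day 5 that chose the gene. The flag is therefore not independent of that choice, and the values are a description.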

How the results depend on the processing

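Over 1059 alternative values of the 3 genes, 990 kept their direction and their side of the threshold, 37 lost and 22 gained a call, and 10 changed sign, none of them from a value past the threshold. Causes were not tested. The 4 libraries of a group limit precision. Adjusted p-values stand in brackets, except where the day 5 contrast that chose the genes is part of the value.

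With the libraries summed, which leaves 2 values a group, day 5 gave -0.38 for Bhlhe40 and -0.23 for Bhlhe41, and day 9 -0.28 for Bhlhe40 (0.23). In KO, day 6 over day 5 gave -0.19 for Bhlhe40 (0.206) and -0.19 for Bhlhe41 (0.129), and day 9 over day 5 gave 0.22 for Bhlhe40 (0.238). In WT, Bhlhe41 on day 9 over day 5 was 0.30 (0.0504), and the genotype difference of day 6 over day 5 for Dazap2 was 0.32.

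Values past the threshold that kept their call and moved by over 1.5 times were Dazap2 in KO + DMSO over WT + DMSO, at -0.1420 with the GC and length correction and -0.1426 with the block added, and Dazap2 with ORY in KO, at 0.2461 with library size alone. Without the filter, Bhlhe41 was -0.22 on day 5 and -0.18 in KO on day 6 over day 5 (0.116), and Dazap2 with ORY in WT was -0.16 (0.0645). Limma-voom gave 0.0867 for Dazap2 on day 9 (0.0457) and 0.19 for Bhlhe40 in KO on day 9 over day 5 (0.0624), and DESeq2 gave 0.27 for Bhlhe41 in the genotype difference of day 6 over day 5. With library size alone, Bhlhe40 was -0.34 in KO + ORY over WT + ORY (0.0445) and 0.13 in KO on day 9 over day 5 (0.175), and Bhlhe41 was -0.23 with ORY in KO (0.117) and -0.0546 in KO + DMSO over WT + DMSO. The GC and length correction gave 0.0474 for Dazap2 with ORY in KO (0.423), -0.30 for Bhlhe41 in KO + ORY over WT + DMSO (0.0433), -0.0057 for Bhlhe41 on day 6 and 0.0249 for Dazap2 in WT on day 9 over day 5.

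The replicate number as a block gave 0.0852 for Dazap2 on day 9 (0.0437), -0.0724 for Dazap2 in KO + ORY over WT + DMSO (0.036), 0.12 for Bhlhe40 in WT on day 9 over day 5 (0.0351) and -0.29 for Bhlhe40 in KO + ORY over WT + ORY (0.00248). The block gave 0.26 for Bhlhe40 and 0.26 for Bhlhe41 in the genotype difference of day 6 over day 5. It ended no call of the 3 genes. Block and GC correction together gave -0.27 for Bhlhe40 (0.00373) and 0.11 for Dazap2 (0.00227) in KO + ORY over WT + ORY, -0.30 for Bhlhe41 (0.0325) and -0.0952 for Dazap2 (0.00216) in KO + ORY over WT + DMSO, 0.0474 for Dazap2 with ORY in KO (0.0953), 0.12 for Bhlhe40 in WT on day 9 over day 5 (0.0269), 0.28 for Bhlhe40 in the genotype difference of day 6 over day 5, -0.0091 for Bhlhe41 on day 6 and 0.0251 for Dazap2 in WT on day 9 over day 5. The odd and even numbers as a term, an alternative chosen after seeing the data, gave 0.12 for Bhlhe40 in WT on day 9 over day 5 (0.0463), and 0.26 for Bhlhe40 and 0.26 for Bhlhe41 in the genotype difference of day 6 over day 5.

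Leaving out 1 library gave -2e-04 to 0.1067 for Bhlhe40 and -0.0837 to 0.0408 for Bhlhe41 on day 4, -0.2585 to -0.2031 for Bhlhe41 on day 5, and -0.0037 to 0.057 for Bhlhe41 on day 6. It gave -0.3722 to -0.2257 for Bhlhe40 in KO + ORY over WT + ORY, -0.3765 to -0.2712 for Bhlhe41 with ORY in KO, and -0.18 to 0.0234 for Bhlhe41 and -0.1686 to -0.1356 for Dazap2 with ORY in WT. In KO on day 6 over day 5 it gave -0.2373 to -0.1473 for Bhlhe40 and -0.1911 to -0.1549 for Bhlhe41, and on day 9 over day 5 0.1658 to 0.263 for Bhlhe40. The genotype difference of day 6 over day 5 ran from 0.2121 to 0.3078 for Bhlhe40 and from 0.2316 to 0.2935 for Bhlhe41. Of values under the threshold, Bhlhe40 on day 6 ran from -0.1728 to -0.0703 and in KO + ORY over WT + DMSO from 0.0105 to 0.1439, and Bhlhe41 ran from -0.2916 to -0.0868 in KO + ORY over WT + ORY, from 0.0031 to 0.1246 in KO + DMSO over WT + DMSO and from -0.3427 to -0.1386 in the ORY interaction.

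With library size alone, mean levels beyond 1 SD from those reported were 60.9 CPM for Bhlhe40 in KO + DMSO, 99.5 CPM for Bhlhe41 in KO on day 5, and for Dazap2 1477 CPM in KO + DMSO, 1708 CPM in WT + ORY, 1153 CPM in KO on day 5 and 1491 CPM in KO on day 9. With the longest transcripts the mean log2 ratio of Bhlhe40 to Bhlhe41 was 1.86 for KO and 1.76 for WT (day 4), 2.12 for KO and 2.28 for WT (day 5), 2.1 for KO and 2.26 for WT (day 6), 2.22 for KO and 2.09 for WT (day 9), 2.7 for KO + ORY and 2.81 for WT + ORY, and 1.44 for KO + DMSO and 2.38 for WT + DMSO.

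The count of genes past the threshold moved most with summed libraries, to 297, 217 and 141 on days 5, 6 and 9, against 1880, 1649 and 1479, and to 1256 in KO and 981 in WT for day 9 over day 5, against 3064 and 2848. For the genotype differences over time it fell to 187 (day 6) and 40 (day 9), against 1580 and 1156, and with the GC correction to 971 and 722. On day 9 the fit of only the groups compared gave 919, and for the genotype difference of day 9 over day 5 the block gave 1770 and the odd and even term 1815. On day 4 it ran from 90 to 361 (182 as reported), and in KO + ORY over WT + ORY from 58 to 820 (138 as reported). With the block it was 2740, against 1801, for ORY in WT, and 2840 with the block and 2962 with block and GC correction, against 1874, for KO + ORY over WT + DMSO. With library size alone, the share of calls that were higher was 30.5%, against 47%, in KO + DMSO over WT + DMSO, 25.7%, against 48.6%, in KO + ORY over WT + ORY, 65.1%, against 52.6%, for ORY in KO, 67.5%, against 56%, for the ORY interaction, 52.9%, against 41.5%, on day 5, and for day 9 over day 5 37.5%, against 54.9%, in KO and 39.8%, against 49.9%, in WT.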

Other observations

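From day 5 to day 6, 43.0% of all genes passed in KO and 44.1% in WT. Of the 3 Hes and Hey genes tested, 2 fell in both genotypes, with Hes1, a Notch target, at -2.30 ± 0.17 in KO and -2.29 ± 0.17 in WT (log2, edgeR adjusted p = 9.02e-14 in KO and 1.62e-13 in WT). Of the 14 Wnt genes, 2 rose and 4 fell in KO, and 3 rose and 4 fell in WT. Among them Tcf7, a TCF-family effector of Wnt signalling, fell, with -2.17 ± 0.19 in KO (adjusted p = 1.06e-11) and -2.34 ± 0.19 in WT (adjusted p = 2.13e-12). In the hypoxia list, 4 of 21 genes rose and 9 fell in KO, and 1 rose and 16 fell in WT, over the same step in which Bhlhe40 fell in both.

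Kdm1a, which encodes the LSD1 protein that ORY inhibits, was itself higher in KO + DMSO than in WT + DMSO (0.27 ± 0.09, edgeR adjusted p = 0.0155) and lower with ORY in KO (-0.37 ± 0.09, adjusted p = 0.00141). In WT the ORY effect on Kdm1a was -0.19 ± 0.09 (adjusted p = 0.142), and the difference between the genotypes was -0.17 ± 0.12 (adjusted p = 0.377).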
